A study of Mus musculus with 16 samples.

Results

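The 8 core pluripotency genes described here are Pou5f1, Sox2, Nanog, Sall4, Utf1, Zfp42, Lin28a and L1td1. They were picked by name, and each was read from the probe set with a single gene symbol that had the highest mean. Each of the 8 has exactly 1 such probe set, among 30102 genes named on the array, and all 8 were among the 22872 genes that passed the filter on low signal. RNA of 8 male mouse embryonic stem cell (ESC) lines of strain 129SV was hybridised to 16 Affymetrix arrays, so that every line has 1 array after 12 days without leukaemia inhibitory factor (LIF) and 1 array with LIF. LIF is the cytokine that holds mouse ESCs in self-renewal through STAT3. EBRTcH3 is the wild-type parent, and the 7 other lines were derived from it by complete loss of MBD3, a subunit of the chromatin-repressing complex NuRD, followed by stable introduction of a vector. In 3 lines no MBD3 coiled coil is present: the line with the empty vector, the line with MBD3a lacking its coiled coil (coiled-coil-deleted) and the line with MBD3a lacking both the methyl-CpG-binding domain and the coiled coil (doubly deleted). These are called lacking lines. The other 5, called retaining lines, still have that coiled coil: MBD3a, MBD3b and MBD3c, each named for the isoform put back, a line whose MBD3a has no methyl-CpG-binding domain (MBD-deleted), and EBRTcH3. The sources used here do not say whether a line is 1 clone. No second culture of a line is named, so lines stand in for replicates and p-values measure only the spread between these lines.

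OCT4 (the product of Pou5f1), SOX2 and NANOG are transcription factors that bind together at enhancers of ESC genes, their own included, and sustain the undifferentiated state. OCT4 and SOX2 often sit side by side on a composite DNA element, an octamer sequence next to a SOX site. SALL4 and REX1 (the product of Zfp42) are zinc-finger proteins of the same network, SALL4 being a known NuRD-binding protein, and UTF1 is a chromatin-bound factor of undifferentiated cells. LIN28A blocks maturation of let-7 microRNAs, and L1TD1 is an RNA-binding protein derived from a LINE-1 transposon. NuRD is known in ESCs for restraining pluripotency genes so that cells can commit when self-renewal signals are withdrawn.

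Values below are log2 signals as deposited, so a difference of 1 is a 2-fold change. The arrays were alike in overall signal, with medians between 4.72 and 4.85, and the 8 genes lay between the 94.1th and the 99.5th percentile of the probe sets of every array. Mbd3 read 7.45 in the empty vector line without LIF and 7.00 with LIF, the lowest of the 8 lines in each condition. The other 7 lines read 8.45 to 9.59 without LIF and 8.48 to 9.15 with LIF. All 6 ESC markers (Esrrb, Tfcp2l1, Fgf4, Cdh1, Epcam, Tdgf1) passed the signal filter. Their mean level without LIF was 10.37 to 10.53 in the lacking lines and 9.88 to 10.29 in the retaining lines. With LIF it was 10.87 to 10.90 and 10.56 to 10.79. The 6 did not go one way. In the retaining lines LIF withdrawal raised 2 of them and lowered 4, where 21.3% of tested genes rose and 14.5% fell. Cdh1 read 11.59 to 12.03 there without LIF and 10.96 to 11.18 with LIF, whereas Esrrb read 9.19 to 10.01 and 11.11 to 11.38. In the lacking lines with LIF, Cdh1 read 11.53 to 11.72 and Esrrb 10.99 to 11.13. LIF withdrawal raised 0 of the 6 markers and lowered 2 in the lacking lines, where 1.71% of tested genes rose and 1.22% fell. The numbers in the sample titles fall in 2 runs: the first holds EBRTcH3, MBD3a, MBD3b, MBD3c and empty vector, and the second holds MBD-deleted, coiled-coil-deleted and doubly deleted. MBD-deleted responded outside the range of the 4 other retaining lines for 5 of the 8 genes (57.3% of tested genes), and as the only retaining line of the second run its construct and its run cannot be told apart. Calls that change without it are given.

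The promoters of Zfp42, Nanog and Sox2, the 3 with the largest falls after LIF withdrawal in the retaining lines, and of Utf1, which rose most, are shown out of the 6 that fell and the 2 that rose. Each window runs from 250 bases before to 50 bases after a transcription start in RefSeq (GRCm38.p6), in the direction of the gene. Capitals mark matches on either strand to ATGCAAA, the octamer core, and to ACAATG, a SOX site.
Nanog, chr6:122707239-122707538, plus strand: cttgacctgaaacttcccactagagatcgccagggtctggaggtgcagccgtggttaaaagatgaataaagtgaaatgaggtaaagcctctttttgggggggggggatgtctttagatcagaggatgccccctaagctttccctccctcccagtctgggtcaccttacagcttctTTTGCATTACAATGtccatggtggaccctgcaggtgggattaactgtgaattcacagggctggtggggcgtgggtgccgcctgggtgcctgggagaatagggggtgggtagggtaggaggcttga
Sox2, chr3:34649745-34650044, plus strand: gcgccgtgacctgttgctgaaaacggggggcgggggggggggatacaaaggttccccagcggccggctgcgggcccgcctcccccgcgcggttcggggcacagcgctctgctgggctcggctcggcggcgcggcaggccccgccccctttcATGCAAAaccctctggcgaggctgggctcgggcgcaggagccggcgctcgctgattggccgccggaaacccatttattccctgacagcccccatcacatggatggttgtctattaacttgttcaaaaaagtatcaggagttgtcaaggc
Zfp42, chr8:43306960-43307259, minus strand: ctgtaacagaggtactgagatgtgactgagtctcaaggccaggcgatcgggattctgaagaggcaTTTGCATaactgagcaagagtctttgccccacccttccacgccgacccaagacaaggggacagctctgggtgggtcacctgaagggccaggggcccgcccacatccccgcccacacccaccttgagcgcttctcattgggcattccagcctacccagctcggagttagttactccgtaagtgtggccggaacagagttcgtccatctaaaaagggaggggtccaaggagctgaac
Utf1, chr7:139943606-139943905, plus strand: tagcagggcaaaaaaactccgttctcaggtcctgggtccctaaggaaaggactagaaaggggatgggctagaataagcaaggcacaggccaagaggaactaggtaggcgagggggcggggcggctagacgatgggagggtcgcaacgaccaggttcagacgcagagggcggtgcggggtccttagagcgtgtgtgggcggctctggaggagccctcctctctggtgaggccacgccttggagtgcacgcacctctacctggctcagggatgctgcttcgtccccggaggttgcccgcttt

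RefSeq windows were matched for 7 of the 8 genes, all but Sall4, with 2 windows each for Pou5f1 and Nanog. A gene was counted if any of its windows held the letters, whereas the percentages are of single windows. The octamer core was found in 3 of the 7 genes (Nanog, Sox2, Zfp42), and 4.63% of all 32851 promoter windows of this length hold it. The SOX letters were found in 3 of the 7 (Nanog, Lin28a and a second, internal start of Pou5f1), against 12.6% of all windows. The composite of both, read as the octamer core on the opposite strand, 1 further base and the SOX letters, overlaps a match to each of them. It occurred in 2 of the 32851 windows, and these are 2 overlapping windows of Nanog. In the window printed above it lies at positions -75 to -62, where -1 is the base before the start. In Sox2 the octamer core lies at -99 to -93 and in Zfp42 at -185 to -179. Utf1, which rose, and L1td1, which fell, held neither motif in their windows, and Lin28a, which rose, held the SOX letters. These matches describe the letters only.

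In the 5 retaining lines, LIF withdrawal lowered 6 of the 8 genes (Pou5f1, Sox2, Nanog, Sall4, Zfp42 and L1td1) and raised Utf1 and Lin28a. The falls were largest in Zfp42 (2.40-fold) and Nanog (2.24-fold), Sox2 fell 1.92-fold, and Pou5f1 fell by 1.21-fold. All 8 passed at an adjusted p under 0.05 in limma, in a comparison in which 35.8% of the tested genes passed (21.3% higher, 14.5% lower). The median change of the 8 was -0.50, against 0.04 over all tested genes. In these bulk samples, fewer undifferentiated cells and less RNA per cell cannot be told apart.

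Pou5f1, which encodes the POU-domain factor OCT4, moved least of the 8. It read 11.93, 12.23, 12.28, 12.14 and 12.33 without LIF in EBRTcH3, MBD3a, MBD3b, MBD3c and MBD-deleted, against 12.50, 12.48, 12.43, 12.29 and 12.56 with LIF. The value without LIF was lower in each of the 5 lines, but the 2 conditions overlapped, since the highest value without LIF (12.33) exceeded the lowest with LIF (12.29). The change was -0.27 ± 0.09 (SE, n = 5 lines, adjusted p = 0.0348), and it did not pass without EBRTcH3 (-0.20), MBD3a (-0.28), MBD3b (-0.30), MBD3c (-0.30) or MBD-deleted (-0.28). EBRTcH3 alone fell by 0.57 and the other 4 lines by 0.15 to 0.25.

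Sox2, the HMG-box partner of OCT4, read 10.12, 10.34, 10.64, 10.21 and 11.07 without LIF in the same line order, against 11.49, 11.51, 11.40, 11.37 and 11.30 with LIF. All 5 values without LIF lay below all 5 with LIF, and MBD-deleted was the highest of those without LIF. The change was -0.94 ± 0.14 (SE, n = 5 lines, adjusted p = 0.000395). Nanog, the homeodomain factor, read 10.46, 10.37, 10.64, 10.28 and 10.88 without LIF, against 11.88, 11.79, 11.51, 11.37 and 11.89 with LIF. These 2 sets did not overlap either. The change was -1.16 ± 0.11 (adjusted p = 1.41e-05), and only 0.9% of tested genes had a mean response as low or lower.

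Sall4 read 10.74, 10.77, 10.78, 10.90 and 11.12 without LIF, against 11.47, 11.40, 11.32, 11.28 and 10.85 with LIF. It fell in 4 lines by 0.38 to 0.73, while MBD-deleted went the other way (0.27). The change of -0.40 ± 0.13 (SE, n = 5 lines, adjusted p = 0.0327) did not pass without EBRTcH3 (-0.32), MBD3a (-0.34), MBD3b (-0.37) or MBD3c (-0.41). It was -0.57 without MBD-deleted, where it passed. Zfp42, a widely used marker of naive ESCs, read 10.41, 10.95, 11.07, 10.79 and 11.50 without LIF, against 12.10, 12.39, 12.22, 12.19 and 12.15 with LIF. Its 2 sets were well separated and its change was -1.27 ± 0.13 (adjusted p = 2.01e-05). Utf1 moved upwards in every line. It read 11.19, 11.30, 11.30, 10.89 and 11.53 without LIF, against 10.73, 10.40, 10.19, 10.12 and 10.46 with LIF, a change of 0.86 ± 0.13 (adjusted p = 0.000312).

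Of the 2 genes for RNA-binding proteins, Lin28a rose and L1td1 fell. Lin28a read 10.61, 10.54, 10.75, 10.75 and 10.96 without LIF in EBRTcH3, MBD3a, MBD3b, MBD3c and MBD-deleted, against 10.41, 10.14, 10.21, 10.37 and 10.32 with LIF. It was higher without LIF in each line, by 0.20 to 0.64, and the change was 0.43 ± 0.09 (SE, n = 5 lines, adjusted p = 0.00296). L1td1 read 9.67, 9.85, 10.22, 10.16 and 10.47 without LIF, against 10.71, 10.73, 10.81, 10.77 and 10.30 with LIF. The change was -0.59 ± 0.17 (adjusted p = 0.0173), with MBD-deleted again in the opposite direction (0.17). L1td1 did not pass without EBRTcH3 (-0.48) or MBD3a (-0.52).

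**Figure D1:**
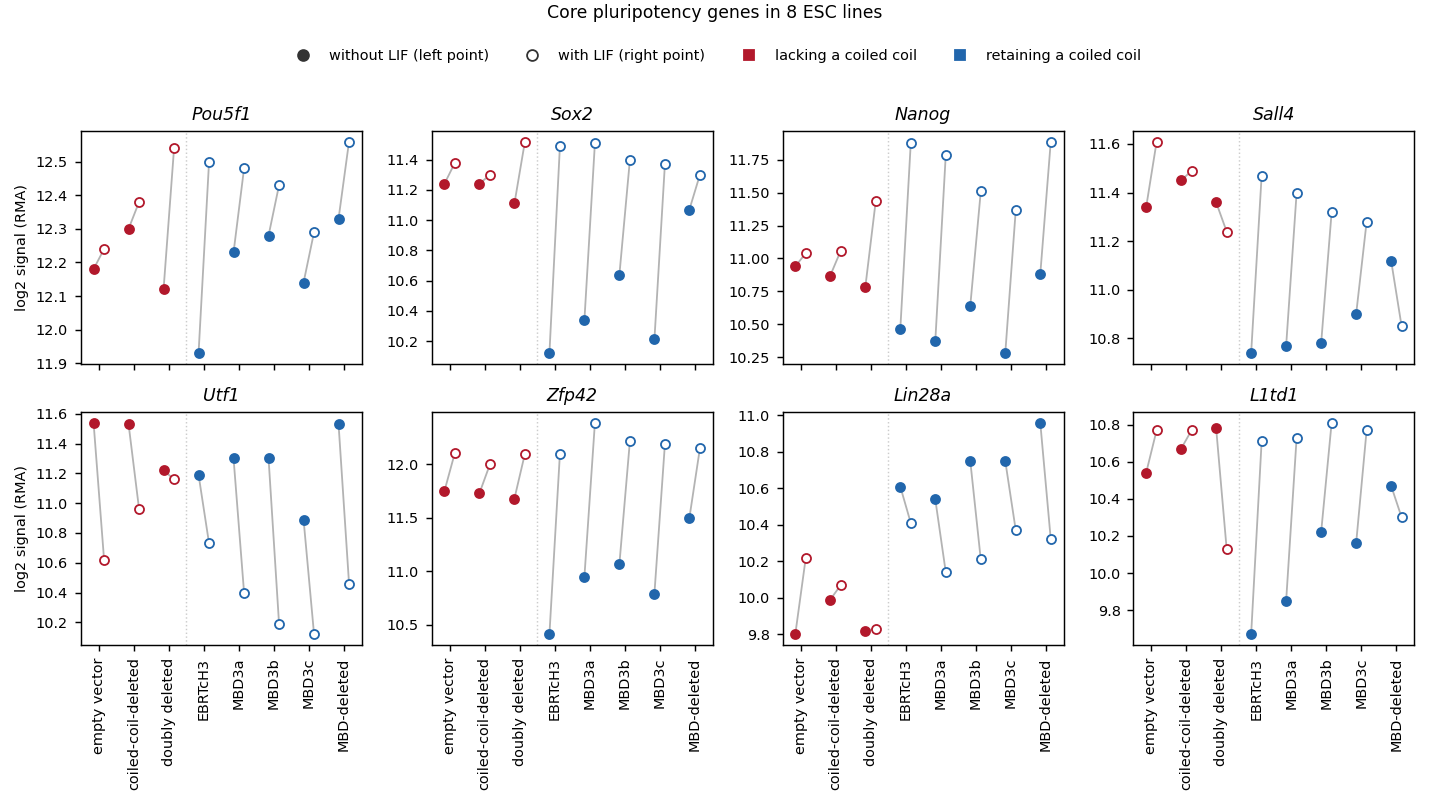
Log2 signal (y axis, RMA, a separate scale in each panel) of the 8 genes in each line, with the array without LIF as the filled left point and the array with LIF as the open right point. Without LIF Sox2 read 11.11 to 11.24 in the 3 lacking lines and 10.12 to 11.07 in the 5 retaining lines, where Nanog responded by -1.42 to -0.87.

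In the 3 lines without a coiled coil, 0 of the 8 genes passed for LIF withdrawal in limma. Of all tested genes 2.93% passed there (1.71% higher, 1.22% lower). An unadjusted p under 0.05 was found for 2 of the 8, Nanog and Utf1, and for 3603 of the 22872 tested genes. Sox2 read 11.24, 11.24 and 11.11 without LIF in empty vector, coiled-coil-deleted and doubly deleted, against 11.38, 11.30 and 11.52 with LIF. The change was -0.20 ± 0.18 (SE, n = 3 lines, 95% interval -0.61 to 0.20). Nanog read 10.94, 10.87 and 10.78 without LIF, against 11.04, 11.06 and 11.44 with LIF, a change of -0.32 ± 0.14 (95% interval -0.63 to -0.01, adjusted p = 0.31). The response was -0.66 in doubly deleted, larger than in empty vector (-0.10) and coiled-coil-deleted (-0.19). Zfp42 read 11.75, 11.73 and 11.68 without LIF, against 12.11, 12.00 and 12.10 with LIF, so that each line was lower without LIF by 0.27 to 0.42. Its change of -0.35 ± 0.16 had an interval of -0.71 to 0.01. The SE and interval of a class rest on a spread estimated over both classes, and the SD of these 3 Zfp42 responses was 0.08.

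The remaining genes showed small or divergent values in these 3 lines. Pou5f1 responded by -0.06, -0.08 and -0.42 (mean -0.19 ± 0.12, SE) and Sall4 by -0.27, -0.04 and 0.12 (mean -0.06 ± 0.17). Utf1 read 11.54, 11.53 and 11.22 without LIF, against 10.62, 10.96 and 11.16 with LIF. Its change of 0.52 ± 0.16 (interval 0.16 to 0.88, adjusted p = 0.138) passed only with array weights, among the alternatives tried (0.55). Lin28a read 9.80, 9.99 and 9.82 without LIF, against 10.22, 10.07 and 9.83 with LIF, and L1td1 read 10.54, 10.67 and 10.78, against 10.77, 10.77 and 10.13. In the doubly deleted line L1td1 responded by 0.65, with the highest level of the 8 lines without LIF (10.78) and the lowest with LIF (10.13).

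Over all 8 lines, Utf1 rose and Pou5f1, Sox2, Nanog and Zfp42 fell, 5 of 8 in a comparison in which 25.0% of tested genes passed (15.1% higher, 9.89% lower). The changes were 0.73 ± 0.11 for Utf1, -0.24 ± 0.07 for Pou5f1, -0.66 ± 0.16 for Sox2, -0.84 ± 0.15 for Nanog and -0.92 ± 0.17 for Zfp42 (SE, n = 8 lines, adjusted p = 0.00194, 0.0323, 0.0122, 0.00357 and 0.00376). These same 5 genes moved in one direction in every line, as 13.4% of tested genes did. Within the 3 lacking lines 6 of the 8 genes moved in one direction (34.8% of tested genes), and within the 5 retaining lines also 6 (39.0%). Pou5f1 did not pass without doubly deleted (-0.21), EBRTcH3 (-0.19), MBD3a (-0.24), MBD3b (-0.25), MBD3c (-0.25) or MBD-deleted (-0.24). Sall4 passed without MBD-deleted (-0.35) and L1td1 without doubly deleted (-0.47).

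The response itself differed between the classes for 3 of the 8 genes, against 12.1% of tested genes (4.17% higher, 7.90% lower in the lacking lines). Nanog responded by -0.32 ± 0.30 in the lacking lines and by -1.16 ± 0.25 in the retaining lines (SD, n = 3 and 5), a difference of 0.85 ± 0.18 (SE, adjusted p = 0.0119). For Zfp42 the responses were -0.35 ± 0.08 and -1.27 ± 0.39 (SD), a difference of 0.92 ± 0.20 (SE, adjusted p = 0.0152). Lin28a went in opposite directions, -0.17 ± 0.22 in the lacking and 0.43 ± 0.17 in the retaining lines (SD), a difference of -0.60 ± 0.15 (SE, adjusted p = 0.0226). For these 3 genes the responses of the 2 classes did not overlap, which held for 18.4% of tested genes. Without coiled-coil-deleted 0 of the 8 passed (0.78 for Nanog, 0.88 for Zfp42 and -0.65 for Lin28a). In that fit 1353 of the 22872 tested genes passed, against 2759 with all 8 lines. Zfp42 also did not pass without doubly deleted (0.95), nor Lin28a without empty vector (-0.48) or MBD3b (-0.57). With the run of title numbers as a covariate, Zfp42 did not pass (0.72, adjusted p = 0.0527), while Nanog (0.87) and Lin28a (-0.75) did. Within the first run, which has 1 lacking line against 4, the differences were 1.10, 1.06 and -0.80 for Nanog, Zfp42 and Lin28a, and within the second, 2 lacking lines against 1, they were 0.58, 0.30 and -0.69. The arm with a single line has no spread of its own.

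Sox2 showed a difference of similar size, 0.73 ± 0.23 (SE, 95% interval 0.22 to 1.25), but with an adjusted p of 0.0655 (0.0382 without the line as a block). Its responses were -0.14, -0.06 and -0.41 in the lacking lines, against -1.37, -1.17, -0.76, -1.16 and -0.23 in the retaining lines, so that only MBD-deleted lay within the range of the lacking lines. Without MBD-deleted, 6 of the 8 passed, Sox2 (0.91), Sall4 (0.51) and L1td1 (0.89) in addition to the 3. In that fit 3914 of the 22872 tested genes passed, against 2759 with all 8 lines. For Pou5f1 the difference was 0.08, with an interval of -0.24 to 0.40, and for Utf1 it was -0.35 (-0.80 to 0.11).

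**Figure D2:**
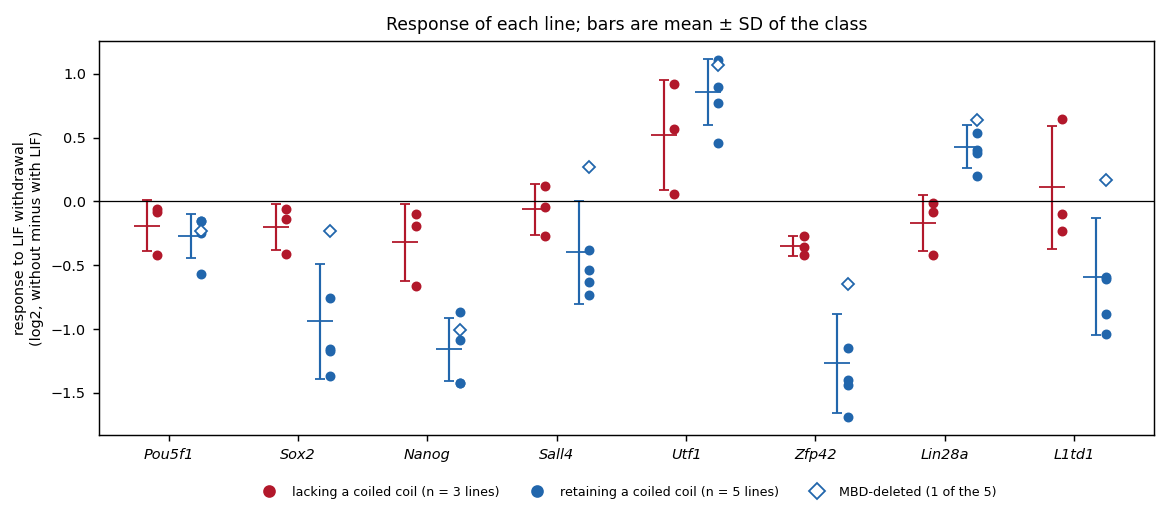
Response to LIF withdrawal (y axis, log2, without minus with LIF) of each line for the 8 genes, lacking lines in red at the left and retaining lines in blue at the right, with class mean and SD as bars. The diamond is MBD-deleted, which lies at -0.23 for Sox2 and above 0 for Sall4 and L1td1, away from the 4 other retaining lines.

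After 12 days without LIF, 5 of the 8 genes differed between lacking and retaining lines, 4 higher and 1 lower, where 20.9% of tested genes passed (8.55% higher, 12.4% lower). Sox2 averaged 11.20 ± 0.08 in the lacking and 10.48 ± 0.39 in the retaining lines (SD, n = 3 and 5), a difference of 0.72 ± 0.19 (SE, 1.65-fold, adjusted p = 0.0244). Zfp42 averaged 11.72 ± 0.04 and 10.94 ± 0.40 in the same order, a difference of 0.78 ± 0.20 (adjusted p = 0.0192). Sall4 averaged 11.38 ± 0.06 in lacking and 10.86 ± 0.16 in retaining lines, a difference of 0.52 ± 0.10 (adjusted p = 0.00432). L1td1 averaged 10.66 ± 0.12 and 10.07 ± 0.32, a difference of 0.59 ± 0.16 (adjusted p = 0.0298). Lin28a was the one that was lower, 9.87 ± 0.10 in lacking and 10.72 ± 0.16 in retaining lines, a difference of -0.85 ± 0.10 (1.81-fold, adjusted p = 0.000391).

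For all 5 of these genes the 2 classes did not overlap without LIF, as for 26.6% of tested genes. The nearest values came from MBD-deleted in the 4 genes that were higher, with Sox2 at 11.07 there and 11.11 in doubly deleted, and Zfp42 at 11.50 and 11.68. Sall4 and Lin28a passed with any 1 line left out (0.49 to 0.59 and -0.91 to -0.79). Sox2 did not pass without empty vector (0.70), coiled-coil-deleted (0.70), doubly deleted (0.76), MBD3a (0.69) or MBD3c (0.65), nor Zfp42 without any 1 of the 3 lacking lines (0.76, 0.77 and 0.80), nor L1td1 without any of these 3 (0.65, 0.59 and 0.53) or MBD3a (0.53). Nanog differed by 0.34 ± 0.13 (SE, adjusted p = 0.0995; 0.43 without MBD-deleted, where it passed), Utf1 by 0.19 ± 0.14 and Pou5f1 by 0.02 ± 0.10, the last with an interval of -0.21 to 0.24. With the run of title numbers as a covariate, Sall4 (0.43) and Lin28a (-0.95) passed and Sox2 (0.55, adjusted p = 0.0961), Zfp42 (0.61, 0.0794) and L1td1 (0.42, 0.112) did not. Within the first run (1 lacking line against 4) the differences were 0.91, 0.54, -0.86, 0.94 and 0.56 for Sox2, Sall4, Lin28a, Zfp42 and L1td1, and within the second (2 against 1) they were 0.10, 0.28, -1.05, 0.20 and 0.26.

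With LIF, 2 of the 8 genes passed between the classes, against 14.1% of tested genes (7.65% higher, 6.48% lower). Nanog averaged 11.18 ± 0.23 in the lacking lines and 11.69 ± 0.23 in the retaining lines (SD, n = 3 and 5), a difference of -0.51 ± 0.15 (SE, 1.42-fold lower, adjusted p = 0.0453). Utf1 averaged 10.91 ± 0.27 and 10.38 ± 0.24 in the same order, a difference of 0.53 ± 0.16 (adjusted p = 0.0472). Both sat close to the threshold and their classes overlapped: Nanog at 11.44 in doubly deleted exceeded MBD3c (11.37), and Utf1 at 10.62 in empty vector lay below EBRTcH3 (10.73). Nanog did not pass without empty vector (-0.44), coiled-coil-deleted (-0.45), EBRTcH3 (-0.46), MBD3a (-0.48), MBD3b (-0.55) or MBD-deleted (-0.46), and Utf1 did not pass without coiled-coil-deleted (0.51), doubly deleted (0.41), MBD3a (0.54), MBD3b (0.49) or MBD3c (0.47). Within the first and the second run of title numbers the differences were -0.60 and -0.64 for Nanog and 0.26 and 0.60 for Utf1; with the run as a covariate Nanog passed (-0.62) and Utf1 did not (0.41, adjusted p = 0.155).

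For the other 6 genes the difference with LIF did not pass. It was -0.01 ± 0.10 for Sox2, which read 11.30 to 11.52 in the lacking and 11.30 to 11.51 in the retaining lines, and -0.07 ± 0.11 for Pou5f1. It was -0.14 ± 0.10 for Zfp42, 0.18 ± 0.15 for Sall4, -0.25 ± 0.12 for Lin28a and -0.11 ± 0.17 for L1td1 (SE). The 95% interval of the difference was -0.23 to 0.20 for Sox2, -0.30 to 0.17 for Pou5f1 and -0.50 to 0.00 for Lin28a. For 0 of the 8 did the classes separate fully with LIF, although 20.2% of tested genes did.

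**Figure D3:**
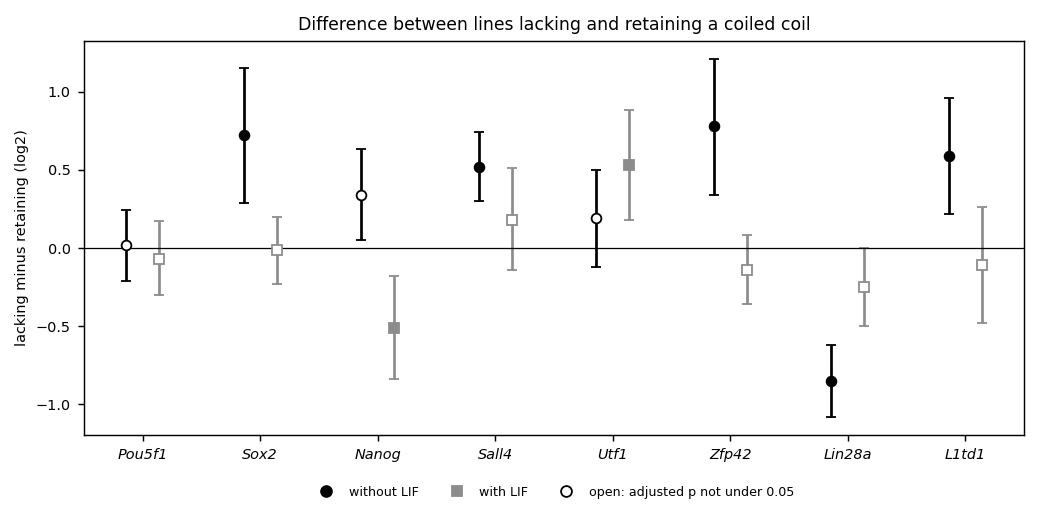
Difference of the lacking minus the retaining lines (y axis, log2) without LIF (circles, left) and with LIF (squares, right), with 95% intervals from limma; filled symbols passed at an adjusted p under 0.05. Sox2, Sall4, Zfp42 and L1td1 are higher and Lin28a is lower in the lacking lines without LIF, while with LIF the filled symbols are those of Nanog (-0.51) and Utf1 (0.53).

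Arranged by level, most genes had the retaining lines without LIF at one end. Mean Sox2 stood at 10.48 in retaining lines without LIF, 11.20 in lacking lines without LIF, 11.40 in lacking lines with LIF and 11.41 in retaining lines with LIF, and the last 2 lay within 1 SD (0.11 and 0.09) of each other. Nanog ran 10.53, 10.86, 11.18 and 11.69 in that same order of groups, with steps as large as or larger than the SD of the neighbours (0.24, 0.08, 0.23 and 0.23). Pou5f1 covered little range, with 12.20 in lacking and 12.18 in retaining lines without LIF, and 12.39 in lacking and 12.45 in retaining lines with LIF. Lin28a had a different order, lowest in lacking lines without LIF (9.87), then lacking with LIF (10.04), retaining with LIF (10.29) and retaining without LIF (10.72).

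MBD-deleted, a line that keeps the coiled coil but not the methyl-CpG-binding domain, was outside the range of the 4 other retaining lines in its response of Sox2, Sall4, Zfp42, Lin28a and L1td1. For 4 of these, all but Lin28a, the response was nearer the mean of the lacking lines, as for 38.8% of tested genes, so neither share sets the 8 genes apart. Zfp42 fell by 0.65 in MBD-deleted, between the lacking lines (0.27 to 0.42) and the 4 others (1.15 to 1.69). For Nanog, in contrast, MBD-deleted responded by -1.01, inside the range of the 4 others (-1.42 to -0.87). For Lin28a it had the strongest response of all lines (0.64, against 0.20 to 0.54 in the 4 others). With LIF, MBD-deleted and doubly deleted, both in the second run of title numbers, held the 2 lowest levels of Sall4 (10.85 and 11.24) and of L1td1 (10.30 and 10.13), a pattern noticed in the values and shown by 5.08% of tested genes.

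EBRTcH3, whose Mbd3 is the unaltered gene, had the lowest or joint lowest response of the 8 lines for 6 of the 8 genes, as did 13.0% of tested genes. It fell by 1.37 for Sox2, 1.69 for Zfp42, 0.73 for Sall4, 1.04 for L1td1 and 0.57 for Pou5f1, and shared its Nanog response of -1.42 with MBD3a. Among the retaining lines it also showed the smallest rise of Utf1 (0.46, against 0.77 to 1.11) and of Lin28a (0.20, against 0.38 to 0.64). The 3 isoform lines can be set side by side: the responses of MBD3a, MBD3b and MBD3c were -1.17, -0.76 and -1.16 for Sox2, -1.42, -0.87 and -1.09 for Nanog, and -1.44, -1.15 and -1.40 for Zfp42. With 1 array per line and condition, no test between single lines is possible.

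Across the 16 arrays the 8 genes did not form 1 pattern. Sox2 and Zfp42 were closest (Pearson r = 0.97 over 16 arrays), followed by Nanog and Zfp42 (0.87), Sall4 and L1td1 (0.86) and Sox2 and Nanog (0.84). Pou5f1 went most with Nanog (0.83), and Sall4 less so with Nanog (0.46) or Pou5f1 (0.31). Utf1 was negatively related to Nanog (-0.63), and Lin28a to Sall4 (-0.63) and Sox2 (-0.60), while Utf1 and Lin28a were unrelated to one another (0.02). The arrays fall into groups by condition and class and share cell lines, so these values only describe the pattern.

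**Figure D4:**
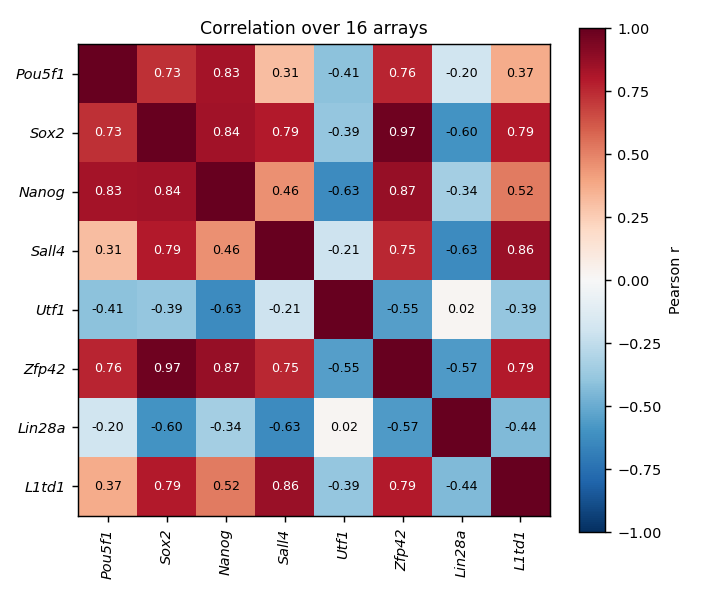
Pearson correlation of log2 signal between each pair of the 8 genes over the 16 arrays, red for positive and blue for negative. Sox2, Nanog, Zfp42 and Pou5f1 are positively related (0.73 to 0.97), whereas Utf1 and Lin28a have negative values with most of the others.

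Outside the 8, the genes most like Sox2 over the 16 arrays were Pecam1 (r = 0.977), a cell adhesion molecule of ESCs and endothelium, Gnpda1 (0.976) and Ubtf (0.961), a factor of ribosomal DNA transcription. Those most like Nanog were As3mt (0.962), Rnf115 (0.960) and Prdm14 (0.959), a regulator of naive pluripotency. For Pou5f1 they were Pou5f1-rs4 (0.882), Fgf4 (0.878), whose enhancer is a classic OCT4-SOX2 target, and Actr6 (0.875). Pou5f1-rs4 is named as a related sequence of Pou5f1, and the sources used here do not say whether the 2 probe sets share targets.

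Among other genes tied to this network, known targets of OCT4 and SOX2 mostly fell in the retaining lines. Beside each count that follows stand the shares of all tested genes that were higher and lower. Of 9 tested, 1 rose and 6 fell in the retaining lines (median -0.57, shares 21.3% and 14.5%), and in the lacking lines 0 rose and 1 fell (median 0.12, shares 1.71% and 1.22%). Fbxo15, an ESC-specific F-box gene, changed by -1.71 ± 0.13 (SE, adjusted p = 2.42e-06) in the retaining lines, Rif1 by -0.84 and Gdf3, a TGF-beta family ligand, by -0.71. Lefty1, an inhibitor of Nodal, rose by 1.04 ± 0.18. In the lacking lines the gene that passed was Tdgf1, the Nodal co-receptor (-0.74 ± 0.13, adjusted p = 0.0136). Tdgf1 was also among those that fell in the retaining lines (-0.54 ± 0.10). The response itself was higher in the lacking lines for 1 of the 9, Fbxo15 (1.05), and lower for 0 (shares 4.17% and 7.90%). Without LIF, lacking minus retaining, 4 of the 9 were higher and 0 lower (shares 8.55% and 12.4%), namely Jarid2 (0.82), Rif1 (0.72), Fbxo15 (0.68) and Lefty1 (0.60). With LIF, 1 was higher and 3 lower (shares 7.65% and 6.48%), Lefty1 at 1.11 and Gdf3 (-0.53), Tcf7l1 (-0.48) and Fbxo15 (-0.37).

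Protein partners of OCT4, NANOG and SALL4 showed falls as well. In the retaining lines 7 of 15 fell and 0 rose (14.5% and 21.3% of tested genes), led by the nuclear receptor genes Nr0b1 (-2.32 ± 0.17) and Esrrb (-1.63 ± 0.12), Sall1 (-2.08 ± 0.23), a relative of Sall4, and Nr5a2 (-1.15 ± 0.14). In the lacking lines 1 of 15 fell (1.22% of tested genes), Stat3, which transmits the LIF signal (-1.08 ± 0.12, adjusted p = 0.000958). Stat3 was also among the 7 that fell in the retaining lines (adjusted p = 1.03e-05 in limma). Over all 8 lines its change was -1.03 ± 0.07 (SE), so the fall was not particular to the lacking lines. The response differed for 4 of the 15, all higher in the lacking lines (4.17% of tested genes): Nr0b1 (2.16), Sall1 (1.87), Esrrb (1.18) and Nr5a2 (0.99). Without LIF, 5 of the 15 were higher in lacking lines and 2 lower (8.55% and 12.4% of tested genes), with Sall1 at 1.33 and Esrrb at 1.02. With LIF 1 was higher and 4 lower (7.65% and 6.48%), with Nr0b1 at -1.37 and Nr5a2 at -0.50.

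In the LIN28 and let-7 list, genes that let-7 represses or that act in its maturation, 6 of 11 rose in the retaining lines and 0 fell (21.3% and 14.5% of tested genes). Ccnd2, a cyclin, rose by 1.04 ± 0.09, the chromatin protein gene Hmga2 by 1.02 ± 0.18, and the RNA-binding protein gene Igf2bp3 by 0.92 ± 0.09. In the lacking lines 1 of 11 rose (1.71% of tested genes), Cdc25a (0.50 ± 0.09). Cdc25a was also among those that rose in the retaining lines (0.27 ± 0.07). The response was lower in the lacking lines for 4 of 11 and higher for 0 (7.90% and 4.17% of tested genes), with Hmga2 at -1.52 and Igf2bp3 at -0.73. Without LIF 5 of 11 were lower in lacking lines and 0 higher (12.4% and 8.55%), led by Lin28b, the paralogue of Lin28a (-1.15 ± 0.11, adjusted p = 0.000119). With LIF 1 of 11 was higher (7.65% of tested genes), Hmga2, by 1.43 ± 0.18. Mature let-7 was not among the quantities analysed here.

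Of 12 NuRD subunit genes other than Mbd3, 5 rose and 1 fell in the retaining lines (median 0.18, against 21.3% and 14.5% of tested genes), Cdk2ap1 rising by 0.89 and Mta1 by 0.85. In the lacking lines 0 of 12 passed (median 0.12, against 2.93% of tested genes). The response itself was higher in the lacking lines for 0 of 12 and lower for 1, Mta1 at -0.52 (4.17% and 7.90% of tested genes). Without LIF 3 were higher in the lacking lines and 3 lower (8.55% and 12.4% of tested genes), with Mta3 at 0.53 and Mta1 at -0.40. With LIF 3 were higher and 0 lower (7.65% and 6.48%), with Cdk2ap1 at 0.60, Mta3 at 0.59 and Gatad2a at 0.49. Among relatives of the 8 genes by family, 7 of 12 rose and 2 fell in the retaining lines (21.3% and 14.5% of tested genes) and 0 passed in the lacking lines (2.93%). Sox11 (1.86 ± 0.12) and Pou3f1 (1.23 ± 0.09) rose there, and Sox1, a neural gene like Sox11, fell (-0.81 ± 0.08). Sox1 was lower in the lacking lines with LIF (-0.69) and Pou2f3, a POU factor of epithelial cells, was higher (1.76). For these relatives the response itself was higher in the lacking lines for 1 of 12 and lower for 3 (4.17% and 7.90% of tested genes).

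**Figure D5:**
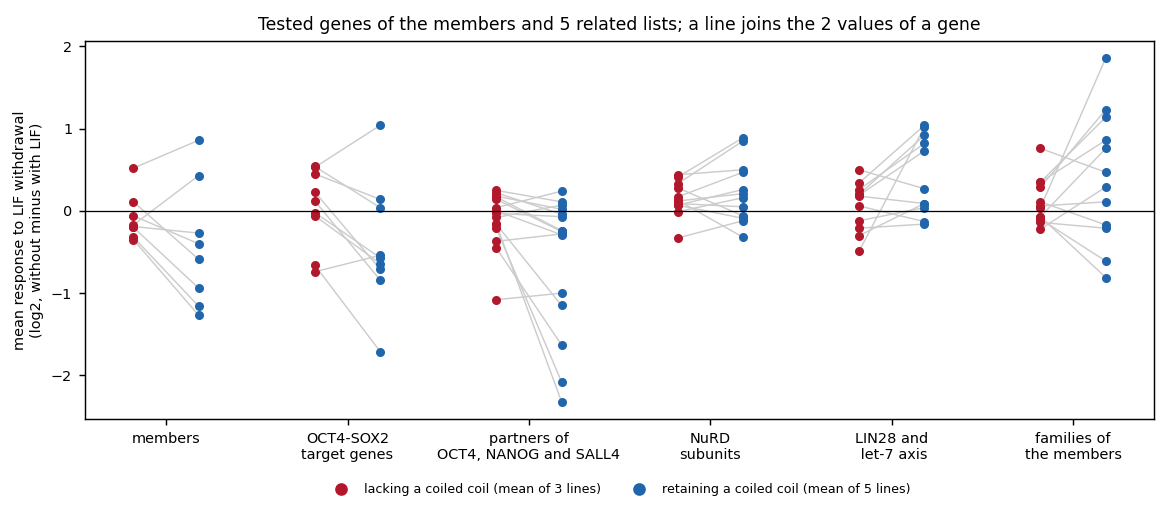
Mean response to LIF withdrawal (y axis, log2) of every tested gene among the 8 and in 5 related lists, with the lacking lines in red at the left and the retaining lines in blue at the right; a line joins the values of a gene. The blue points spread more widely than the red ones, down to -2.32 for Nr0b1 among the protein partners.

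Markers of other cell types moved with LIF withdrawal in the same samples, with more calls in the retaining lines. Among all tested genes 21.3% rose and 14.5% fell in the retaining lines, and 1.71% and 1.22% in the lacking lines. The marker counts below stand against these shares. Over 7 trophectoderm markers the mean level without LIF was 7.93 to 8.13 in the lacking and 8.21 to 9.55 in the retaining lines. With LIF it was 7.14 to 7.53 and 6.44 to 6.93. In this list 5 of 7 rose and 1 fell in the retaining lines, and 2 rose and 0 fell in the lacking lines. Its members did not go one way: without LIF Cdx2 read 5.55 to 5.83 in the lacking and 7.04 to 9.47 in the retaining lines, whereas Elf5 read 6.08 to 6.46 and 4.99 to 5.31, and Eomes 9.00 to 9.24 and 7.58 to 8.77. The 5 formative epiblast markers averaged 8.27 to 8.54 in the lacking and 8.94 to 9.27 in the retaining lines without LIF (7.58 to 7.68 and 7.18 to 7.59 with LIF), and 4 of 5 rose in the retaining and 3 of 5 in the lacking lines. Over 3 mesoderm markers the level without LIF was 5.79 to 5.92 in the lacking and 6.28 to 7.84 in the retaining lines, against 5.72 to 5.82 and 5.50 to 5.63 with LIF. For the 8 fibroblast markers it was 5.37 to 5.44 and 5.49 to 5.90 without LIF, against 5.32 to 5.58 and 5.10 to 5.24 with LIF. Of these 8, 7 passed the signal filter, and they did not go one way. Without LIF Thy1 read 8.10 to 8.29 in the lacking and 7.26 to 7.56 in the retaining lines, whereas Cd44 read 4.78 to 5.03 and 5.97 to 7.45. With LIF Thy1 read 8.51 to 8.80 and 7.03 to 7.45. The 6 primitive endoderm markers read 5.95 to 6.01 and 6.18 to 6.69 without LIF, against 5.87 to 6.05 and 5.79 to 5.96 with LIF. Of these 6, 3 rose and 2 fell in the retaining lines, and 0 passed in the lacking lines. In the retaining lines Dab2 read 7.37 to 9.08 without LIF and 5.14 to 6.00 with LIF, whereas Gata4 read 6.83 to 7.30 and 7.17 to 7.81. The 4 neural markers read 6.23 to 6.32 and 7.01 to 7.58 without LIF, against 6.17 to 6.36 and 6.79 to 7.07 with LIF. Among the neural markers 2 rose and 2 fell in the retaining lines, where Pax6 read 5.19 to 6.48 without LIF, against 7.32 to 7.83 with LIF. The part that a change in cell types had in the values of the 8 genes was not tested.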

How the data were processed

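The authors deposited log2 signal values that the submitters' processing notes describe as RMA from affy; no version and no probe set definition appears in those notes. RMA makes arrays alike in distribution, so a change shared by most genes would not be seen. Of 65770 probe sets, 27 without values were dropped and the 30439 with 1 gene symbol were used, symbols being updated by Entrez identifier from RefSeq (GRCm38.p6). Each gene was read from its probe set of highest mean (30102 genes), and 22872 genes were tested, those whose signal exceeded the 40th percentile on 3 or more arrays. The members and lists were chosen with earlier results of these data known.

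Fits used limma 3.58.1 in R 4.3.3 (moderated by empirical Bayes, Benjamini-Hochberg over the 22872 genes) and were first tested on simulated data; "passed" means an adjusted p under 0.05. LIF withdrawal was fitted on the difference between the arrays of a line, which makes the line a block; the pairing is by cell line, from the sample titles. Both classes share 1 estimate of spread in that fit. Class differences were fitted within each condition on 8 arrays. The number of arrays limits the precision. Alternatives were array weights, no filter, the mean of a gene's probe sets, median centring, the run of numbers in the titles (1 to 10, and 15 to 20) as covariate or alone, leaving out each line, no replicate block, and the line as a random block. Named are the 8 genes, Mbd3, up to 4 genes per list and comparison with the largest change that passed (the text gives a part, picked with values in view), the 3 most alike genes and the markers. A list gene that passed in the lacking lines is also given for the retaining lines.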

Additional observations from a re-analysis of the deposited data

Results flagged for a closer look

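A test of the difference itself separated the responses of the classes for Nanog (0.85, lacking minus retaining), Zfp42 (0.92) and Lin28a (-0.60). Among the retaining lines, EBRTcH3 had a Pou5f1 response of -0.57 that stood apart from the other 4 (-0.25 to -0.15). MBD-deleted had an L1td1 level of 10.30 with LIF, apart from the other 4 lines (10.71 to 10.81). These were 2 of 24 sets of 5 values examined for a value far from the rest, and chance gives about 1 in 20.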

How the results depend on the processing

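Of 768 single-gene values under the alternatives (48 results), 635 kept direction and side of the threshold, 84 no longer passed, 19 newly passed and 30 changed sign. Gene counts that moved by over 1.5 times were, for LIF withdrawal in 8 lines, 5715 against 18 in the second run of title numbers and 3645 to 6831 with 1 line left out. In lacking lines 670 became 1661 with array weights, 1145 with the run as covariate, 84 and 0 within the first and second run, and 114 to 1039 with 1 line out. In retaining lines 8181 became 0 in the second run. The response difference (2759) gave 5455 with weights, 732 and 0 within runs, and 1353 to 3914 with 1 line out. The class difference without LIF (4791) gave 1822 and 0 within runs and 3014 to 5433 with 1 line out; with LIF (3233) it gave 5373 with weights, 679 and 0 within runs, and 1779 to 3866. The first run has 1 lacking line against 4 and the second 2 against 1, so the lone line is assumed to vary like the others.

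Of the 8 genes, 0 passed in the second run in the 8-line, retaining and 3 class comparisons. With array weights 1 passed in lacking lines and 5 for the response difference, and in the first run 0 passed for the response difference and with LIF, and 3 without LIF. With the run as covariate 2 passed without LIF (Sall4 and Lin28a) and 1 with LIF (Nanog), and Zfp42 did not pass for the response difference (0.72). With LIF 0 passed with no filter. With 1 line left out, 5 to 8 passed in retaining lines, 0 to 6 for the response difference, 2 to 6 without LIF and 0 to 1 with LIF.

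Signs changed in the second run for Sall4 and L1td1 over 8 lines (0.12 and 0.24) and in retaining lines (0.27 and 0.17), and for Sall4 in lacking lines (0.04). They did for the response difference of Pou5f1 (-0.02), Sox2 (-0.01) and Sall4 (-0.23), without LIF for Pou5f1 (-0.12), Nanog (-0.06) and Utf1 (-0.15), and with LIF for Sox2 (0.11) and L1td1 (0.15). In the first run they did for L1td1 in lacking lines (-0.23) and with LIF (0.01), and for the Utf1 response difference (0.11). The covariate turned L1td1 in lacking lines (-0.11; -0.00 with weights) and with LIF (0.08), Pou5f1 without LIF (-0.04) and Sox2 with LIF (0.02). With 1 line left out the ranges were -0.15 to 0.04 for Sall4 and -0.17 to 0.28 for L1td1 in lacking lines, -0.04 to 0.06 for Pou5f1 without LIF, and with LIF -0.14 to 0.01 for Pou5f1, -0.07 to 0.04 for Sox2 and -0.21 to 0.11 for L1td1. Unless fewer lines were fitted, the cause was not tested.

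Without the replicate block the Sox2 response difference passed (0.73, adjusted p = 0.0382), and no other call on the 8 genes changed in that fit. Centring arrays on their median shifted every gene by -0.13 in retaining lines, 0.13 for the response difference and 0.10 without LIF. It turned the share of higher genes among those passing to 41.5% (main 60.4%) over 8 lines, 36.9% (59.5%) in retaining lines, 56.2% (34.5%) for the response difference and 63.7% (40.8%) without LIF. Under it Lin28a no longer passed for the response difference (-0.47), while Sox2 did (0.86), as did Nanog without LIF (0.43).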
